A study of Mus musculus with 7 samples.

Results

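The cytosolic ribosomal protein genes encode the proteins of the small and large subunits of the ribosome that translates messenger RNA in the cytoplasm. They were chosen by name: a probe set was a member where the platform annotation gave it exactly 1 gene symbol, and that symbol was Rps or Rpl with a number, or Rplp0 to Rplp2, leaving out the Rps6k kinases and pseudogenes. This gave 89 probe sets of 45 genes, out of 16255 probe sets and 8378 genes measured. The name rule also took in Rps19bp1, which encodes a protein that binds RPS19 and is no part of the ribosome, and the paralogs Rpl22l1, Rpl7l1 and Rps27l. Another 103 probe sets carried several symbols, at least 1 of them ribosomal. They were not followed gene by gene, which left 32 ribosomal protein symbols without a member probe set.

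RNA came from the bone marrow of transplant recipients, mice given marrow cells. The ABCG2 and EZH2-Mt groups are named by a transgene, and the controls are labelled mock. Mock control marrow (3 arrays) and ABCG2 marrow (2 arrays), in which the drug efflux pump ABCG2 is expressed, were used whole. Marrow with EZH2-Mt, a form of the Polycomb methyltransferase EZH2, came from recipients described as MDS-like, MDS being taken as myelodysplastic syndrome. It was sorted into GFP-negative and GFP-positive cells, with 1 array each. GFP is green fluorescent protein, and whether the GFP-negative cells carried EZH2-Mt is not known here. The strain, age, vector, mutation and remaining host cells of the recipients are not stated in the sources used here, and mice were not numbered. The probe set of Abcg2 itself read lowest on the arrays labelled ABCG2 (-0.92 and -0.91, against -0.17 to 0.02 on mock arrays). Whether it covers the transgene is not known, so it does not check the labels, and each direction below is that of the arrays labelled ABCG2.

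A cell makes its ribosomal proteins in equal amounts, and their messenger RNAs are among the most abundant of a blood-forming cell. Most begin with a cytosine followed by a run of pyrimidines, the 5′ terminal oligopyrimidine (TOP) tract, through which mTOR signalling and the RNA-binding protein LARP1 set their translation. Loss of 1 copy of a ribosomal protein gene underlies Diamond-Blackfan anaemia, a failure of red cell production, and loss of RPS14 belongs to the 5q deletion form of MDS. Arrays measure the amount of such RNAs and not their translation.

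The starts of 8 member genes are printed, chosen to show how such a run looks (7 of them, all but Rps3, hold one, a larger share than among the members), in genes that passed the test described below (Rpl14, Rps27, Rps6, Rps3) and in genes that did not (Rps18, Rplp2, Rpl38, Rpl35). Each line holds 30 bases before and 20 from the annotated start onward, 5′ to 3′ on the gene's own strand, from RefSeq on build GRCm38.p6. Capitals mark the longest run of 8 or more C or T that reaches the stretch from 5 bases before to 10 bases after the start.
Rpl14, chr9:120571487-120571536, + strand: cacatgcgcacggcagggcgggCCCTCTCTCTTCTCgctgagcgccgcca
Rps27, chr3:90213629-90213678, - strand: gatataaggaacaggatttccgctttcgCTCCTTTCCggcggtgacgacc
Rps6, chr4:86857348-86857397, - strand: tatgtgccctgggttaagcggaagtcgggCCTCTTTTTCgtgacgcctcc
Rps3, chr7:99483690-99483739, - strand: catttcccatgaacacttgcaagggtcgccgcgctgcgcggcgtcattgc
Rps18, chr17:33955646-33955695, - strand: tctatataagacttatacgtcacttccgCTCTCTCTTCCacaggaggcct
Rplp2, chr7:141447621-141447670, + strand: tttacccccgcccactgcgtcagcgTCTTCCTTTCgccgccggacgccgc
Rpl38, chr11:114668550-114668599, + strand: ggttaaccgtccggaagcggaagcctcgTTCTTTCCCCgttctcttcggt
Rpl35, chr2:39005112-39005161, - strand: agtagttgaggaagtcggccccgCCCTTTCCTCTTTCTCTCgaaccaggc

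Of the 45 member genes, 40 had an entry among the RefSeq starts used here, with 47 starts in all. Starts on chr18 were left out for the members but kept among all annotated starts, so a missing gene may still have an entry there. A run of this kind lay at 19 of the 47 member starts (40.4%), against 11.6% of all 32851 annotated starts. Among starts of genes with a probe set called different between ABCG2 and mock marrow it lay at 5 of 14, and among the other member starts at 14 of 33. In the 300 bases from 250 before to 50 after the start, the letters CGGAAG, the core of sites bound by ETS family factors, occurred on either strand at 29 of 47 member starts, against 16.85% of all starts. The reverse of these letters, CTTCCG, can overlap a pyrimidine run. These are matches of letters and not measured binding sites, and a start annotated a few bases away would place a run outside the stretch searched.

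The deposited values are log signals, taken as log2 and centred so that each probe set has a median of 0 over the 7 arrays. They therefore give differences between arrays and no absolute level, and levels of different genes cannot be set against each other. The middle of the family moved little: the median member value was -0.25 on mock 1, 0 on mock 2, 0.01 on mock 3, 0 and 0.01 on the ABCG2 arrays, 0.06 on the GFP-negative array and 0.40 on the GFP-positive array. Over all probe sets the array medians lay between 0 and 0.01. Mock 1 was thus low and the GFP-positive array high for the family as a body. The ABCG2 arrays had the family's middle in place and a tail of high probe sets. That tail was not particular to the family. On the ABCG2 arrays all probe sets had standard deviations of 1.06 and 1.13, against 0.58 and 0.60 for the members.

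**Figure D1:**
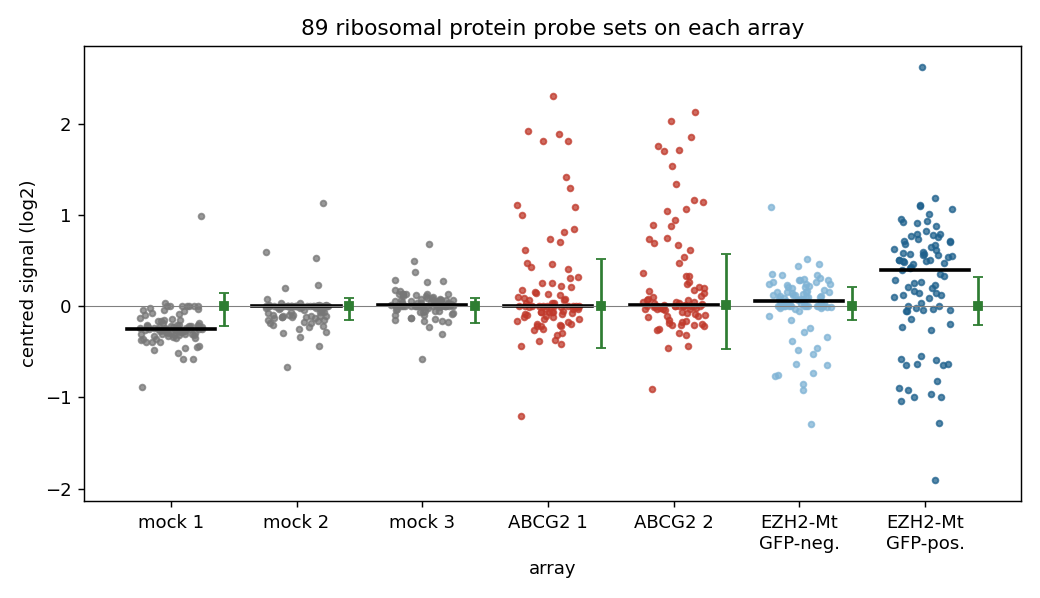
Centred signal (log2) of the 89 member probe sets, 1 point each, on the 7 arrays, with the member median as a black line and the median and middle 50% of all 16255 probe sets as a green square with bars. The member median lies at -0.25 on mock 1 and 0.40 on the GFP-positive array, and between 0 and 0.06 on the others, while single probe sets reach 2.30 on the ABCG2 arrays.

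The first comparison asks how ABCG2 marrow differed from control marrow. Of the 89 member probe sets, 17 rose (19.1%, against 31.5% of all probe sets) and 1 fell (against 25.3% of all), by limma with an adjusted p under 0.05 over all 16255 probe sets. The median difference, ABCG2 mean minus mock mean, was 0.13 over the members and 0.11 over all probe sets. It was 0.03 without mock replicate 1, the array on which the family was low, and 0.24 with the _s_at and _x_at probe sets left out. With 1 value per gene, the mean over its probe sets, 13 of 45 genes rose (35.6% of all genes did) and 1 fell (26.2% of all). Both ABCG2 arrays lay above every mock array in 39 member probe sets (40.6% of all) and below every mock array in 7 (32.6% of all). The difference was under 0.4 in size in 66 of the 89 members, a count not made over all probe sets. Per the labels each array came from a recipient mouse, and p-values measure the spread between these 2 and 3 arrays.

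The 41 probe sets of small subunit genes held 6 of the rises and the 38 of large subunit genes held 8, with the 1 fall. Both shares of rises lay below the 31.5% of all probe sets that rose, and 25.3% of all fell. Of the 7 probe sets of paralogs 2 rose, as did that of Rps19bp1. Neither Rplp0 nor Rplp2, of the acidic stalk that recruits elongation factors, passed the test (differences -0.20 and -0.09). The median difference was 0.08 for the small subunit and 0.15 for the large subunit.

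Among small subunit genes, the highest value belonged to Rps3, whose protein lies at the mRNA entry site and also serves in DNA repair. Probe set 1455600_at read 0, 0 and -0.05 on the mock arrays, 2.30 and 2.03 on the ABCG2 arrays, 0.26 on the GFP-negative and -0.03 on the GFP-positive array. Both ABCG2 arrays stood far above the other 5. The difference was 2.18 ± 0.15 (limma standard error, as for each ± below), a 4.55-fold rise with an adjusted p of 0.000105. The other probe set of Rps3, 1435151_a_at, read -0.33, -0.06 and 0 on the mock arrays and 0 and 0 on the ABCG2 arrays, a difference of 0.13 ± 0.16 (adjusted p = 0.500, limma).

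Rps20, a protein of the small subunit's head, had 4 probe sets. On 1421935_at the mock arrays read -0.05, 0 and -0.16 and the ABCG2 arrays 1.92 and 2.13 (difference 2.09 ± 0.15, adjusted p = 0.000116, limma). On 1450417_a_at they read 0.03, 0 and -0.57, and 1.89 and 1.86 (2.05 ± 0.22, adjusted p = 0.000505, limma). In the GFP-negative and GFP-positive fractions the first read -0.11 and 0.56, and the second -0.48 and -0.996, so they parted there. The annotation names the same source sequence for these 2 probe sets, so they are not independent views of the gene. The _x_at probe sets 1456373_x_at and 1456436_x_at gave -0.004 ± 0.14 and -0.16 ± 0.14, neither past the threshold. The gene mean of 0.99 is thus the average of values near 2 and values near 0.

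Rps27, whose protein carries a zinc finger, had 1 probe set. It read -0.39, -0.44 and -0.17 on the mock arrays, 1.41 and 1.34 on the ABCG2 arrays, 0 on GFP-negative and 1.18 on GFP-positive. Here the GFP-positive array joined the ABCG2 arrays above all others. The rise was 1.71 ± 0.15, or 3.27-fold (adjusted p = 0.000249, limma). Its paralog Rps27l, known as a p53 target, had 3 probe sets with differences from 0.33 to 0.52, none past the threshold, and read from -1.04 to -0.45 on the EZH2-Mt arrays.

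Rps6 encodes the protein substrate of the S6 kinases. Its RNA read -0.23, 0.20 and 0 on the mock arrays and 1.09 and 1.06 on the ABCG2 arrays, with -0.73 and -0.92 on GFP-negative and GFP-positive. The ABCG2 and mock arrays did not overlap, and the rise was 1.08 ± 0.17 (adjusted p = 0.00231, limma). It did not pass with quantile normalization (0.54, adjusted p = 0.159, limma). Rps25, which helps start translation at internal entry sites, read -0.44, -0.16 and -0.22 on mock and 0.47 and 0.89 on ABCG2 arrays, with 0.31 on GFP-negative and 0 on GFP-positive (0.95 ± 0.18, adjusted p = 0.00521, limma). Rps19bp1 read 0, -0.08 and 0.14 on mock, 0.71 and 0.67 on ABCG2, -0.34 on GFP-negative and -0.04 on GFP-positive arrays. It was higher by 0.67 ± 0.14 (adjusted p = 0.00777, limma), and at 0.28 it did not pass with quantile normalization.

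Among large subunit genes, Rpl14 was highest. It read -0.46, 0 and 0 on the mock arrays and 1.81 and 1.75 on the ABCG2 arrays, with -1.29 on the GFP-negative array and -0.9985 on the other fraction. The EZH2-Mt fractions lay below all mock arrays and the ABCG2 arrays above them. The rise was 1.93 ± 0.19, or 3.82-fold (adjusted p = 0.000357, limma). Rpl12, of the base of the stalk, read -0.88, -0.28 and 0 on mock and 1.10 and 1.70 on ABCG2 arrays. It rose by 1.79 ± 0.30 (adjusted p = 0.00313, limma), with a mock range of 0.88 that was among the widest of the family.

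Rpl22, a gene whose loss is known in T cell leukaemia, rose on 1 of its 3 probe sets. On 1448398_s_at the mock arrays read -0.22, 0 and 0.12 and the ABCG2 arrays 1.81 and 1.71, with -0.92 on GFP-negative and -1.28 on GFP-positive (1.79 ± 0.16, adjusted p = 0.000252, limma). On 1416603_at, which has the same annotated source sequence, the ABCG2 arrays read 0.31 and 0.36 (0.36 ± 0.16, not past the threshold), and 1453118_s_at gave -0.03 ± 0.17. The paralog Rpl22l1, which can take the place of Rpl22 in the ribosome, was at 0.38 ± 0.24, with an adjusted p of 0.211 (limma).

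Rpl13a, whose protein also takes part in silencing inflammatory mRNAs, split between its 4 probe sets. Probe set 1433928_a_at read -0.25, 0 and 0.17 on mock and 1.30 and 1.17 on ABCG2 arrays (1.26 ± 0.17, adjusted p = 0.00134, limma), and 1455001_x_at rose by 0.67 ± 0.20 (adjusted p = 0.0268, limma). The others, 1417608_a_at and 1455485_x_at, gave 0.02 and -0.15. The 2 that rose read from -0.76 to -0.52 on the EZH2-Mt arrays, and the 2 that did not read from 0.09 to 0.82 there. With quantile normalization neither rise passed (0.67 and 0.41), and that of 1455001_x_at did not pass without mock replicate 2, ABCG2 replicate 1 or ABCG2 replicate 2 (adjusted p from 0.0521 to 0.0962, limma).

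Rpl27, mutated in some Diamond-Blackfan families, rose by 1.07 ± 0.14 on 1448217_a_at and 0.84 ± 0.14 on 1453096_x_at (adjusted p = 0.00105 and 0.00270, limma), and was at 0.35 ± 0.15 on 1416099_at. The rise on 1453096_x_at did not pass with quantile normalization (0.49, adjusted p = 0.102, limma). The first read -0.31, -0.22 and -0.16 on mock arrays, 0.81 and 0.88 on ABCG2 arrays, 0 on GFP-negative and 0.09 on GFP-positive. Rpl37 had 1 probe set, 1438291_x_at, of a class whose probes may cross-hybridise. It read 0, 0.07 and -0.13 on mock and 0.995 and 0.95 on ABCG2 arrays, and -0.77 and -0.64 in the GFP-negative and GFP-positive fractions. It had a rise of 0.99 ± 0.14 (adjusted p = 0.00159, limma) that was 0.51 and did not pass with quantile normalization. On 1439780_at the paralog Rpl7l1 read -0.31, -0.20 and 0 on mock, 0.74 and 0.69 on ABCG2, 0.10 on GFP-negative and -0.02 on GFP-positive arrays. It rose on 1439780_at (0.89 ± 0.15, adjusted p = 0.00344, limma) and on 1452049_at (0.54 ± 0.16, adjusted p = 0.0259, limma), but not on 1426386_at (0.09). With quantile normalization neither rise passed (0.64 and 0.41, adjusted p = 0.0692 and 0.255, limma). The rise of 1452049_at did not pass when any of mock replicate 1, mock replicate 2, ABCG2 replicate 1 or ABCG2 replicate 2 was left out (adjusted p from 0.0608 to 0.0890, limma). Its parent Rpl7 had differences from -0.09 to 0.29 over 3 probe sets.

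The 1 fall was in Rpl39, a short protein that lines the exit tunnel of the ribosome. It read 0.98, 1.13 and 0.69 on the mock arrays, 0 and -0.90 on the ABCG2 arrays, -0.86 on GFP-negative and -0.19 on GFP-positive. The 4 arrays of ABCG2 and EZH2-Mt marrow lay below all 3 mock arrays, and the ABCG2 arrays lay 0.90 apart. The difference was -1.38 ± 0.29, a 2.61-fold fall (adjusted p = 0.00702, limma).

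**Figure D2:**
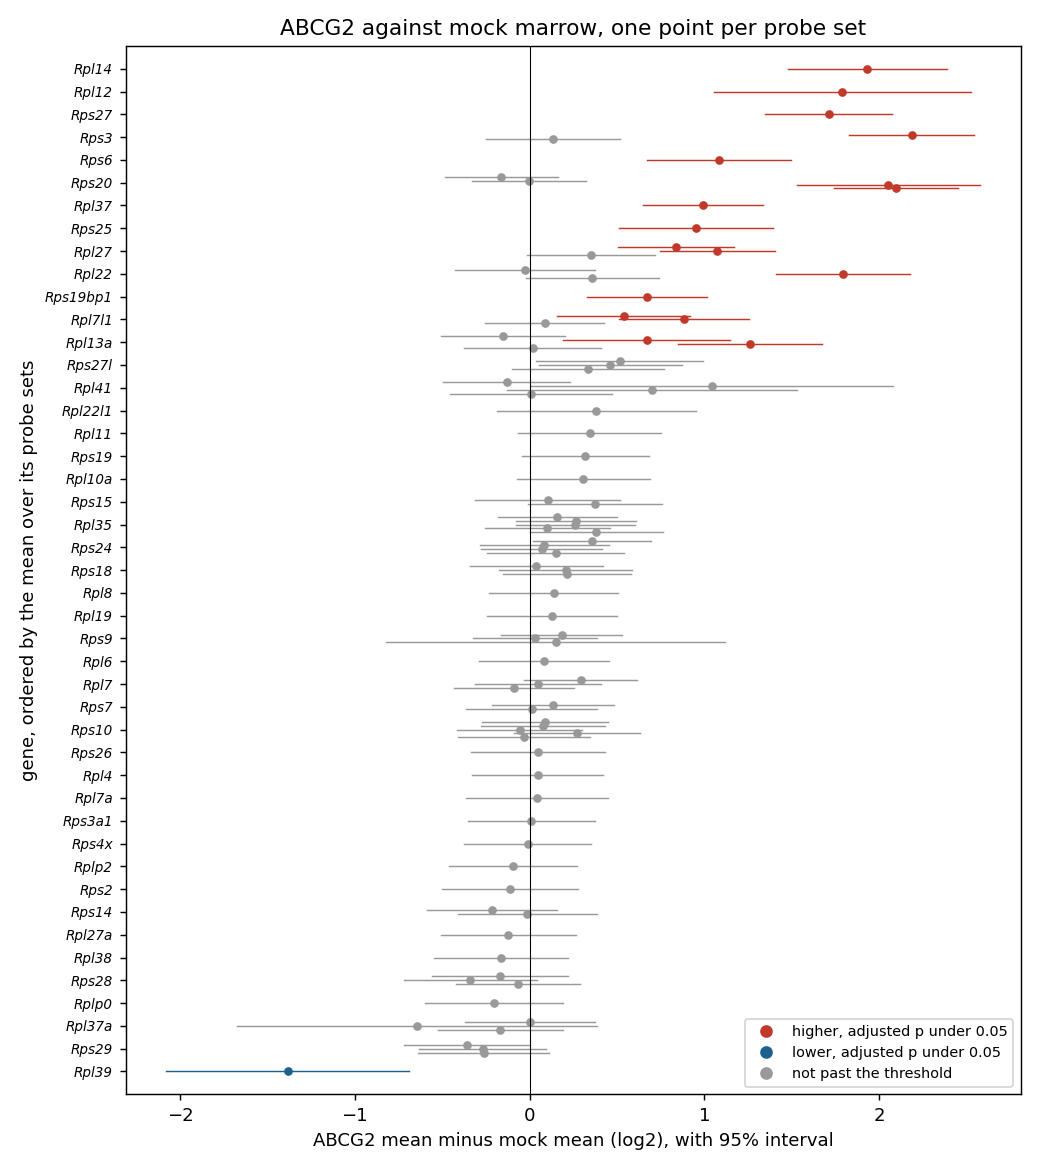
ABCG2 mean minus mock mean (log2) of each member probe set with its 95% interval from limma, grouped by gene and ordered by the gene mean; red points rose, the blue point fell, and grey points did not pass an adjusted p of 0.05. The 17 red points run from 0.54 to 2.18, and 6 genes hold red and grey points side by side.

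Probe sets of the same gene differed from each other in this comparison. Of the 20 member genes with 2 or more probe sets, 6 held both a called and an uncalled one (Rpl13a, Rpl22, Rpl27, Rpl7l1, Rps20 and Rps3), and in 5 the differences spread over more than 1 log2. A test of the difference between 2 probe sets of 1 gene, within each array, called 14 of the 78 member pairs (30.5% of all 9321 such pairs). For Rps3 the pair differed by 2.05 ± 0.18 and for Rps20 by 2.06 to 2.25 between either risen probe set and either of the others (adjusted p from 0.00151 to 0.00335, limma). The share among member pairs was below that over all genes, so the splits are not more frequent here than elsewhere on the array.

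The rises were unevenly spread over the classes of probe set that the suffix names. Probe sets ending in _at match 1 transcript, _a_at match variants of 1 gene, _s_at match transcripts of several genes, and _x_at hold probes that may cross-hybridise. Of member probe sets, 10 of 20 ending in _at rose (30.2% of all such probe sets), 3 of 28 in _a_at (31.6%), 3 of 38 in _x_at (39.2%) and 1 of 3 in _s_at (35.6%). The median difference was 0.60 for _at and 0.07 for _x_at members. The _at rises took in Rps19bp1 and the paralog Rpl7l1, which only the name rule makes members. Of the _at rises, those of Rps6, Rps19bp1 and Rpl7l1 did not pass with quantile normalization, and the others did. Ribosomal protein genes have many processed pseudogenes with near-identical sequence, so the signal of an _x_at or _s_at probe set may include other transcripts, and these values are uncertain. Of the 103 probe sets with several symbols, 31 rose by limma, a share near that of all probe sets (31.5%). Against 25.3% of all, 0 fell, and 0 did so at an unadjusted p under 0.05 (limma). Their median difference was 0.14, close to the members' 0.13.

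**Figure D3:**
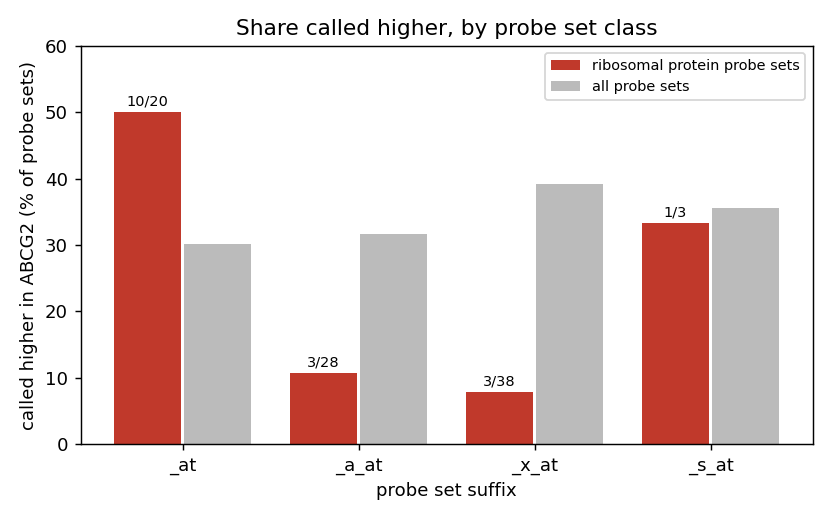
Share of probe sets (%) that rose in ABCG2 marrow by the limma test, for member probe sets (red, with counts above the bars) and all probe sets (grey) of each suffix class. In the _at class 10 of 20 members rose, against 30.2% of all _at probe sets, while 3 of 38 _x_at members rose against 39.2% of all.

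Rpl41, the smallest ribosomal protein, was among the genes with a wide spread though no probe set passed the test. Its probe sets 1454639_x_at and 1433530_at, of 1 annotated source sequence, read 0.12 and 1.53, and -0.01 and 1.04, on ABCG2 replicates 1 and 2, so their differences of 1.04 ± 0.43 and 0.70 ± 0.34 rest on replicate 2. Without replicate 1 both passed (1.75 and 1.23, adjusted p = 0.00547 and 0.0135, limma). The other 2 probe sets gave 0.01 and -0.13. Rps9 did likewise on 1426958_at, at -0.20 and 1.15 on the ABCG2 arrays, and its difference of 0.15 turned to -0.53 without ABCG2 replicate 2. Rpl37a on 1416218_x_at read -1.20 and -0.04 on these arrays and had the widest mock range of the family, 1.10 (from -0.51 to 0.59). It was at -0.65 with both ABCG2 arrays, and at -1.23 without ABCG2 replicate 2, where it passed (adjusted p = 0.0465, limma).

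Genes of inherited or acquired ribosomal disease were measured in 13 of the 21 cases listed, and 3 rose on the gene mean: Rpl22, Rpl27 and Rps27 (35.6% of all genes rose). With quantile normalization 2 of the 13 rose. The others did not pass. Rps14, the gene of the 5q deletion, read -0.26, 0 and 0.08 on the mock arrays and -0.17 and -0.17 on the ABCG2 arrays as a gene mean (-0.11 ± 0.15). Rps19, the first Diamond-Blackfan gene known, read -0.29, -0.06 and -0.03 on mock and 0.18 and 0.20 on ABCG2 arrays (0.32 ± 0.15, adjusted p = 0.114, limma). Rpl11, which binds and restrains MDM2 when ribosome assembly fails, was at 0.34 ± 0.17. Rps24 (0.16), Rps7 (0.07), Rps10 (0.07), Rps26 (0.05) and Rpl35 (0.23) lay near the family's middle, and Rps28 and Rps29 below it (gene means -0.19 for Rps28 and from -0.36 to -0.26 over the probe sets of Rps29).

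**Figure D4:**
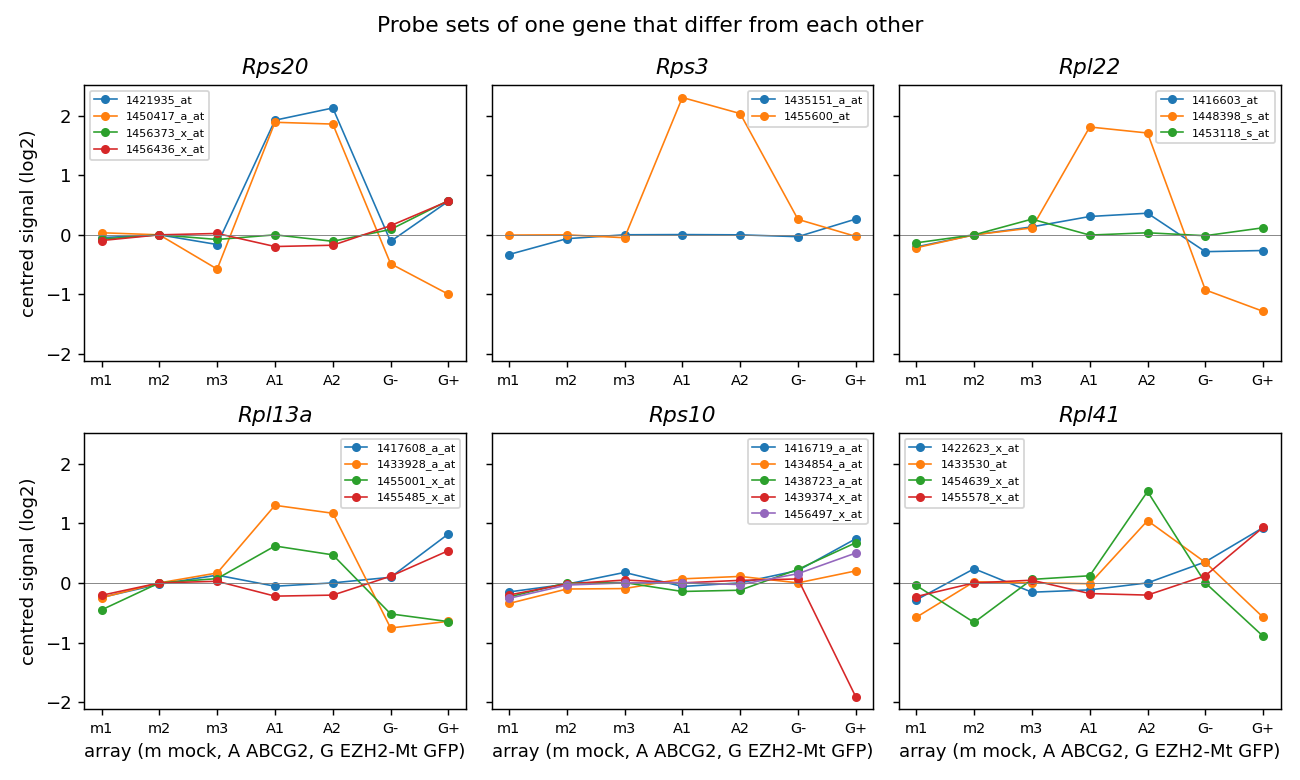
Centred signal (log2) of every probe set of 6 genes on the 7 arrays (m mock, A ABCG2, G- GFP-negative, G+ GFP-positive); lines join values of 1 probe set and carry no order in time. Of the 4 probe sets of Rps20, 2 reach about 1.86 to 2.13 on the ABCG2 arrays and 2 stay between -0.20 and 0, and in Rps10 probe set 1439374_x_at alone falls to -1.91 on the GFP-positive array.

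The second comparison sets the sorted fractions of EZH2-Mt marrow beside each other and beside mock marrow. Each fraction is 1 array, so these differences have no replicate check and no test. In 67 of the 89 members the GFP-positive array read higher than the GFP-negative array (52.2% of all probe sets), and the median difference was 0.35, against 0.03 over all probe sets. The GFP-positive array was the highest of the 7 in 54 members (21.6% of all). It lay above all mock arrays in 60 members (43.4% of all) and below all in 19 (33.6% of all). The GFP-negative array lay above all mock arrays in 58 (39.1% of all) and below in 12 (30.8% of all). With the median difference of all probe sets near 0, this was a small upward shift shared by most of the family.

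Few members moved far. Past 1 log2 between the fractions, 2 were higher on GFP-positive (3.09% of all), Rpl27a and Rps27, and 1 was lower (2.04% of all), on the Rps10 probe set 1439374_x_at. Against the mock mean, 7 members were over 1 higher on the GFP-positive array (7.97% of all) and 5 over 1 lower (4.2% of all). On the GFP-negative array 3 were past 1 in either direction (6.43% of all): Rpl27a, Rpl14 and Rpl39.

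Rpl27a, a large subunit protein whose loss in mice is known to activate p53, stood highest. It read 2.62 on GFP-positive and 1.09 on GFP-negative, against 0, -0.25 and 0.07 on mock and -0.10 and -0.26 on ABCG2 arrays. Both EZH2-Mt arrays lay above all others, 1.53 apart. Rps27 followed at 1.18 between the fractions. Rplp0, the scaffold of the stalk, read 1.06 on GFP-positive and 0.20 on GFP-negative, against -0.27, 0 and 0.03 on mock arrays. Rps3a1 read 0.91 and 0.16, and Rps29 0.95 and 0.23 as a gene mean, with 0.64 to 0.81 between the fractions over its 3 probe sets. Rps14 read 0.65 on GFP-positive and 0.12 on GFP-negative, and Rps19 0.55 and 0.

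At the low end, Rpl12 read -0.55 on GFP-positive and 0.44 on GFP-negative, a difference of -0.99 that lies just inside the 1 log2 mark. Rps27l (-0.36), Rps25 (-0.31), Rps9 (-0.30) and Rps6 (-0.19) followed on gene means. Of the 7 probe sets of paralogs, 2 read higher on GFP-positive than on GFP-negative (52.2% of all probe sets). On GFP-positive 0 of the 7 lay above all mock arrays, while 35 of 41 small subunit and 23 of 38 large subunit probe sets did (43.4% of all). The 7 come from only 3 genes, and 1423254_x_at and 1450925_a_at of Rps27l have the same annotated source sequence. In 4 genes the probe sets spread over more than 1 log2 between the fractions. For Rps10, the probe set 1439374_x_at read -1.91 on GFP-positive and from -0.20 to 0.07 on the other 6 arrays, while its other 4 probe sets read from 0.20 to 0.74 on GFP-positive. For Rpl41 the spread ran from -0.92 to 0.81, for Rps20 from -0.51 to 0.67 and for Rpl7 from -0.68 to 0.47.

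The 17 probe sets that rose in ABCG2 marrow had a median of -0.05 on the GFP-positive array, against 0.50 for the 71 that were not called. The 2 comparisons share the mock arrays and the centring, so this is given as values alone.

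**Figure D5:**
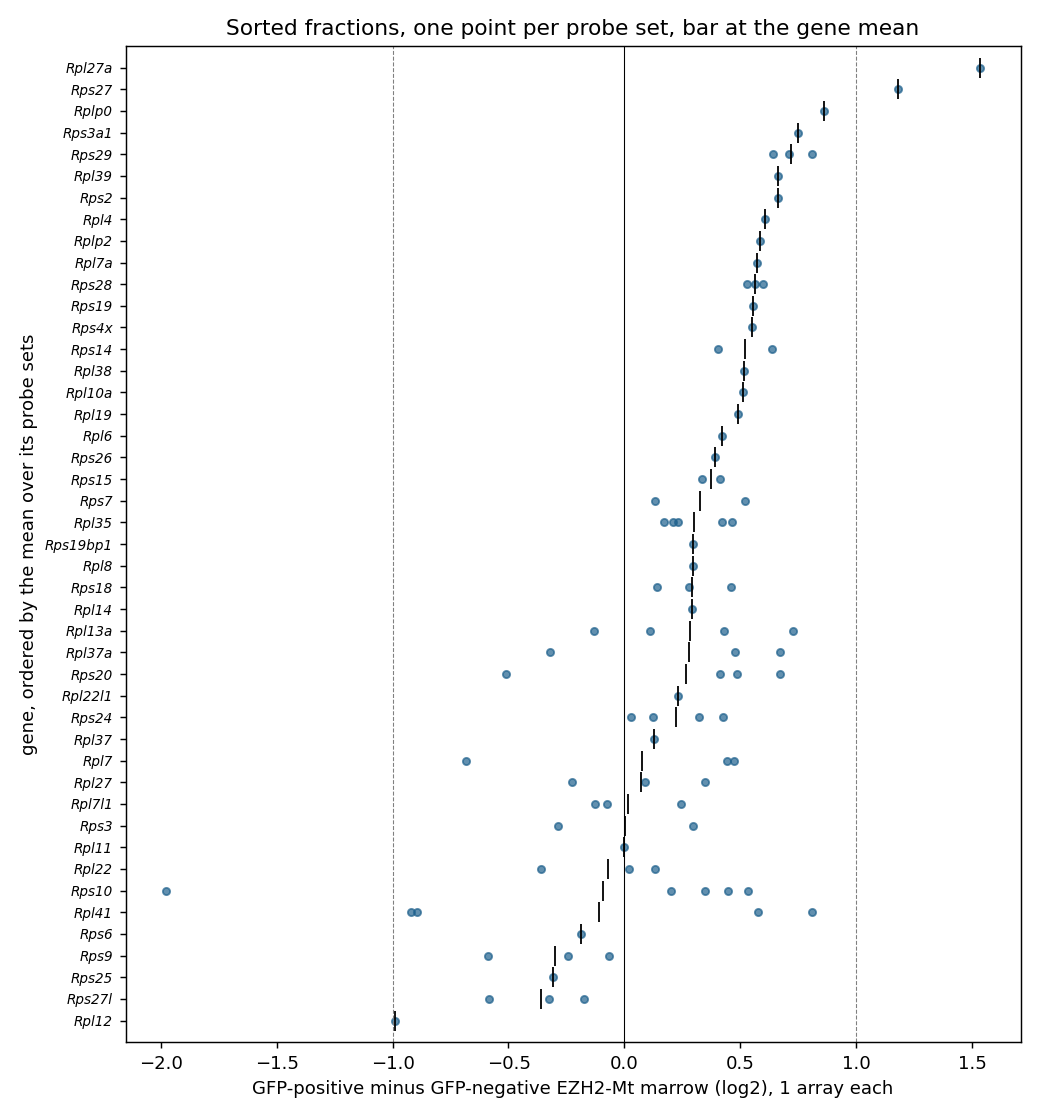
GFP-positive minus GFP-negative EZH2-Mt marrow (log2, 1 array each), with 1 point per member probe set and a bar at each gene's mean, ordered by that mean; dashed lines mark 1 log2 either way. Of the 89 points 67 lie right of 0, 2 lie past 1, and 1 point of Rps10 lies at -1.98.

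Within mock marrow the family also moved together. Mock 1 was the lowest of the 3 mock arrays in 74 of 89 members (36.4% of all probe sets) and the lowest of all 7 arrays in 51 (14.4% of all). Its member values had a middle 50% from -0.31 to -0.17, and 2 of 89 lay above 0, those of Rpl39 and of the Rps20 probe set 1450417_a_at. The 5 genes with the widest mock range were Rpl37a (1.10), Rpl12 (0.88), Rpl41 (0.72), Rpl22l1 (0.71) and Rps20 (0.61), each on 1 probe set. With the member median subtracted on each array, a step added after seeing the data, mock 1 was the lowest mock array in 21 members and 45 members were higher on GFP-positive than on GFP-negative, as subtraction of a shared shift must give. With quantile normalization the counts were 71 and 68.

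Other genes of the same machinery, from lists of known components, are given for ABCG2 against mock marrow as gene means (35.6% of all genes rose and 26.2% fell). Rpsa and Fau, ribosomal proteins whose names the rule does not catch, were at 0.12 and -0.06 and did not pass. On GFP-positive cells Rpsa read 0.98 and Fau 0.695, against 0.23 and 0.26 in the other fraction. Of 19 measured genes with TOP mRNAs outside the ribosome 16 rose and 1 fell, with a median of 0.69. The translation factor genes Eef1d (1.14 ± 0.16) and Eif3l (1.25 ± 0.18), the nucleolar chaperone gene Npm1 (0.82 ± 0.15) and Snhg1 (1.71 ± 0.20), a host gene of small nucleolar RNAs, rose. Eef1a1, which delivers aminoacyl-tRNA, fell (-0.41 ± 0.14). With quantile normalization 4 of the 19 rose and 0 fell (limma; 0 also at an unadjusted p under 0.05), with a median of 0.44, while 1428 of all 8378 genes rose.

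Factors that assemble the ribosome rose in 12 of 15 measured cases, with 0 lower (limma; 0 also at an unadjusted p under 0.05) and a median of 0.90. They included Tsr2, which escorts RPS26 (1.85 ± 0.14), Nob1, the nuclease that finishes 18S rRNA (1.84 ± 0.16), Grwd1, which escorts RPL3 (1.77 ± 0.19), and Heatr3 (1.73 ± 0.20). With quantile normalization 5 of the 15 rose, with a median of 0.61. Of 10 measured genes that signal to ribosomal protein synthesis 7 rose and 1 fell. Myc (2.42 ± 0.65), Mtor (0.71 ± 0.13) and Larp1 (0.70 ± 0.15) rose, and Eif4ebp1, a translation repressor under mTOR control, fell (-1.31 ± 0.15). With quantile normalization 1 rose and 1 fell. Among 6 measured genes of the 5S particle and MDM2, the assembly genes Brix1 (1.08 ± 0.12) and Rrs1 (0.50 ± 0.18) rose and Mdm2 fell (-1.33 ± 0.18). With quantile normalization 1 of the 6 rose and 1 fell. The rRNA control probe sets for 18S had medians of -0.83 and -1.37 on the ABCG2 arrays, against 0 to 0.48 on mock, -0.96 on GFP-negative and 0.32 on GFP-positive.

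Markers of cell types and RNA quality moved between the same arrays, and in bulk marrow fewer cells of a type and less RNA per cell cannot be told apart. In ABCG2 against mock marrow 13 of 13 measured neutrophil genes and 9 of 9 monocyte genes fell (medians -5.66 and -3.73), 4 of 6 B lineage genes and 4 of 6 stem and progenitor genes rose, and of 4 T and NK cell genes 2 rose and 1 fell. With quantile normalization 11 neutrophil genes (median -2.94) and 8 monocyte genes (median -3.13) fell, and of the T and NK cell genes 2 rose and the fall did not pass. The 6 erythroid genes measured (Car1, Car2, Ermap, Klf1, Rhag and Tfrc, of 16 listed) had a median of 2.41 on GFP-positive, 0.96 on GFP-negative, -1.19, 0 and 0.15 on mock 1 to 3, and -0.47 and -0.21 on ABCG2 arrays. All 6 read higher on GFP-positive than on GFP-negative. So did 12 of 13 neutrophil, 7 of 9 monocyte, 5 of 6 B lineage, 3 of 6 stem and progenitor and 1 of 4 T and NK cell genes. The erythroid median was lowest on mock 1 and highest on GFP-positive, the arrays where the ribosomal protein family was lowest and highest. Other cell types shared part of this pattern. The neutrophil median was also highest of the 7 on GFP-positive (1.19), and on mock 1 to 3 it read -0.30, 0 and 0.02. Stem and progenitor (-0.36) and T and NK cell (-1.95) medians were lowest of the 7 on mock 1 too, but not highest on GFP-positive. The 3′ minus 5′ signal of the Actb control probe sets was 0.40 and 0.42 on ABCG2 arrays, 0.31 on GFP-positive, 0.14 on GFP-negative and -0.05 to 0.04 on mock arrays. For Gapdh it was -0.08 and -0.11 on ABCG2 arrays, 0.35 on GFP-positive, 0.09 on GFP-negative and -0.08 to 0.10 on mock arrays. Actb thus lay above the mock range on both ABCG2 arrays, and Gapdh lay slightly below it on ABCG2 replicate 2 alone. The part of these in the ribosomal protein values was not tested. The filter kept only probe sets detected on every array, so a marker absent from any array was not measured.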

How the data were processed

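Per the file headers, the deposited values, taken as log2, are normalized log signals of Affymetrix Mouse430_2 probe sets, kept where the raw signal was 3 to 120534 and every sample (100%) had a call of Present or Marginal. The authors' log base was not given, and folds rest on base 2. The submitters' processing notes name MAS5 without a version, and the scaling between arrays was not given in the sources used here. All 16309 probe sets had a median of 0 over the 7 arrays. The 54 manufacturer controls were set apart. Symbols came from the platform annotation (14229 probe sets with 1, 483 with several, 1543 with none), and all 89 members matched RefSeq GRCm38.p6 with 0 symbols changed.

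ABCG2 was fitted against mock per probe set, per gene mean and per pair of probe sets with limma 3.58.1 in R 4.3.3 (lmFit, eBayes, two-sided), with Benjamini-Hochberg adjustment over all features and a threshold of 0.05. The script was tested on simulated data. Sorted fractions, 1 array each, were described by values and by counts past 1 log2. Alternatives were quantile normalization, array medians subtracted, array weights, robust eBayes, the replicate number as a block, each array left out, _s_at and _x_at probe sets left out, and the median over probe sets in place of the mean. The number of arrays limits the precision.

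The members, the gene lists (components, TOP mRNAs, disease genes, the 5S particle, signalling, assembly, and markers of 6 cell types) and the tests were chosen with earlier results of these data known. All member genes could be named. Values were given for genes with a call, the 5 highest and 5 lowest between fractions and the 5 widest on mock arrays. They were also given for genes whose probe sets lay over 1 apart, disease genes and paralogs. For some of these only differences, or values on part of the arrays, are printed. Other genes came from the lists.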

Additional observations from a re-analysis of the deposited data

Results flagged for a closer look

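The spike control probe sets, which no comparison used, read higher on both EZH2-Mt arrays than on any mock array. The hybridisation spikes bioC, bioD and cre, added to each sample before hybridisation, had a median of 0.91 on the GFP-negative and 2.14 on the GFP-positive array, against -0.03 to 0.06 on mock arrays. The spike bioB, added at the lowest amount, read 0.99 and 2.47, against -0.03 to 0 on mock and -3.07 and -3.20 on the ABCG2 arrays. The poly-A spikes, added to the RNA before labelling, read 1.79 and 3.50, against 0 on mock arrays and -1.04 and -1.49 on the ABCG2 arrays. On the GFP-positive array the ribosomal protein family stood at a median of 0.40. The part of the spikes' shift in that value was not tested.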

How the results depend on the processing

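With quantile normalization 9 member probe sets rose in place of 17, and 3 pairs differed in place of 14. Of the 45 member genes 7 rose in place of 13, and of all 8378 genes 1428 rose in place of 2983, so calls fell over the whole array too. On GFP-positive 4 members in place of 1 read over 1 log2 lower. Of the 18 calls 10 remained, those of Rpl12, Rpl14, Rpl22, Rpl27 1448217_a_at, Rpl39, Rps20 (both), Rps25, Rps27 and Rps3. Leaving out 1 mock array kept from 16 to 18 of the 18 calls and added from 0 to 2. With any 1 array left out the median difference lay from 0.03 to 0.18. With _s_at and _x_at probe sets left out, 0 members read over 1 lower on GFP-positive. Same-numbered arrays of mock and ABCG2 marrow had correlations of deviations of 0.08 and -0.04. With 2 ABCG2 arrays the deviations of 1 mirror those of the other (mock 1 gave 0.08 and -0.08 with them). These values therefore cannot decide whether the numbers pair the arrays. With the number as a replicate block, 17 probe sets rose and 2 fell: 17 of the 18 calls were kept, Rpl13a 1455001_x_at was lost (adjusted p = 0.0518, limma), and Rpl41 1433530_at (higher) and Rpl37a 1416218_x_at (lower) joined. Calls of all 89 members stayed the same with array medians subtracted, array weights and robust eBayes. Subtracting the member median on each array kept 17 of 18 calls. No called member changed direction under any alternative run.

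The values give no absolute level, 2 and 3 arrays limit the precision, and detection on every array was required of each probe set. Both ABCG2 titles share a tag of unstated meaning. If it marks a batch, batch and group cannot be told apart.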
